A study of Mus musculus with 15 samples.

Results

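The 7 genes described here encode parts of the gamma and delta chains of the T cell receptor. They were taken by name from the deposited count table: the gamma constant genes Trgc1, Trgc2 and Trgc4, the gamma variable segment Trgv2, the delta constant gene Trdc, and the delta variable segments Trdv4 and Trdv5. They are 7 of 36 gamma and delta rows among 39827 genes read. They were chosen by their measured level, in CPM (counts scaled to the library total after TMM, a correction for library composition), over the 5 groups, so their levels are given as a description without a test. RNA-seq libraries were made from leukemic T cells of mouse spleen, 3 per group. In every group, bone marrow progenitors (GFP+ Lineage- cKit+ Sca1+) had received ΔE-NOTCH1, a truncated and constantly active NOTCH1, by retrovirus, and had been transplanted into lethally irradiated C57BL/6J mice. The Bcat1 wild-type leukemia WT0 was sampled with PBS and with the BCAT1 inhibitor ERG-245, which was injected intraperitoneally 3 times at 30 mg/kg, 8 h apart. PBS is also the labelled treatment of the other groups, which were WT6, a further wild-type leukemia, and KO7 and KO3, in which Bcat1 was knocked out. Ages are not given in the sources used here.

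A T cell carries either an alpha/beta or a gamma/delta receptor, and each chain is made by joining a V and a J segment (with a D segment for beta and delta) ahead of a constant gene. Gamma and delta segments begin to rearrange early in the thymus, before the alpha genes, so their transcripts can also occur in cells that later carry an alpha/beta receptor. The mouse gamma locus is built of cassettes, each with its own V, J and constant gene: Trgv4 with Trgj1 and Trgc1, Trgv2 with Trgj2 and Trgc2, and Trgv1 with Trgj4 and Trgc4. The delta genes lie inside the alpha locus and are removed from a chromosome on which alpha segments have joined.

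Libraries held 17441292 to 28902573 counts, and r across genes was 0.993 to 0.996 for libraries of the same group but 0.94 to 0.965 otherwise. Whether a group's libraries are separate mice is not given in the labels, so spreads and p-values measure differences between libraries, which may be technical. Each leukemia number was taken as a single leukemia, though the labels give only the number. Bcat1 was lowest in the groups labelled knock-out, at 2.09 CPM in KO7 and 6.95 in KO3, against 35.2 in WT6, 17.8 in PBS-treated WT0 and 13.3 after ERG-245. T cell leukemias are usually clonal, and WT0 differed with treatment in its beta chain: Trbv17 held 39.7% of beta V counts with PBS and 0.930% with ERG-245, while Trbv16 held 4.92% and 49.9%. Treatment and a change of clone cannot be told apart in WT0. In bulk RNA, fewer cells of a type and less RNA per cell cannot be told apart either.

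Sequence similarity bears on how far the gamma constant genes can be read apart. Their first exons were compared base by base in the GENCODE M21 transcripts (GRCm38). Over the whole exon, Trgc2 differed from Trgc1 at 9 of 330 bases (97.3% identity, longest shared run 71 bases), whereas Trgc4 differed from Trgc1 at 59 and from Trgc2 at 61. A read that lies within a run shared by Trgc1 and Trgc2 could come from either gene, and the counts of these near-identical copies are uncertain to that extent. In KO3, Trgc2 had 61 counts beside 3156 of Trgc1.

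The J segments are shown because they mark the cassettes ahead of the constant genes, and they are read 5′ to 3′ from the same transcripts. Trgj1 lies at chr13:19210343-19210402 (plus strand), Trgj2 at chr13:19311245-19311304 (minus strand) and Trgj4 at chr13:19342152-19342212 (plus strand). The letters TTTGC, shared by the 3 segments, are in capitals.
Trgj1: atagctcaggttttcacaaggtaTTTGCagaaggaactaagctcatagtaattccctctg
Trgj2: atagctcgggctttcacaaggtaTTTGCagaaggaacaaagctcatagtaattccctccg
Trgj4: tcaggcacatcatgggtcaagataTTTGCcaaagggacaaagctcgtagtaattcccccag
Trgj1 and Trgj2 differed at 4 of 60 bases. Of the V members the last 90 bases are shown, in which TACTGT, the letters that hold the codon of the conserved cysteine, is in capitals. Their likeness to other V segments was not measured. Trgv2 is shown from chr13:19336573-19336662 (minus strand), Trdv4 from chr14:54075426-54075515 (plus strand) and Trdv5 from chr14:54148662-54148751 (minus strand).
Trgv2: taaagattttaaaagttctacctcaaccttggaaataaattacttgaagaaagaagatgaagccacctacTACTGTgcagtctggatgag
Trdv4: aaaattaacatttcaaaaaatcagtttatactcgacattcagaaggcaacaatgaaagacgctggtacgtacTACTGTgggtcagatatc
Trdv5: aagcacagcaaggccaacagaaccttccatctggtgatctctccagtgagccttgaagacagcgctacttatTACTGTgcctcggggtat
The germline segments go on for 14, 12 and 12 bases after TACTGT, the stretch that joining trims and extends in each clone. These are reference sequences, and the joined receptors of the leukemias were not analysed here.

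The gamma constant genes were highest in WT6, and each followed its own order over the other groups. Trgc2 (chr13:19305060-19307551, minus strand) stood at 144.3, 142.4 and 145.7 CPM in the 3 libraries of WT0 with PBS, 36.2, 35.5 and 36.6 with ERG-245, 327.7, 309.6 and 314.8 in WT6, 93.0, 90.5 and 86.6 in KO7, and 0.802, 1.07 and 0.969 in KO3. No library of one group overlapped another group, and KO3 stood apart from all others near 0. Trgc1 (chr13:19214103-19216618, plus strand) stood at 31.8, 29.6 and 31.9 CPM in WT0 with PBS, 49.98, 51.9 and 52.5 with ERG-245, 90.7, 87.1 and 86.5 in WT6, 45.4, 47.5 and 44.9 in KO7, and 47.2, 50.8 and 49.3 in KO3. WT6 was highest and WT0 with PBS lowest. KO7 lay below WT0 with ERG-245 without overlap, while KO3 overlapped both, so the place of KO3 is not resolved. Trgc4 (chr13:19344558-19352343, plus strand) stood at 50.6, 54.1 and 49.1 CPM in WT0 with PBS, 16.2, 16.9 and 15.0 with ERG-245, 87.7, 87.8 and 87.0 in WT6, 28.2, 29.5 and 26.6 in KO7, and 39.7, 42.4 and 36.8 in KO3. Its groups did not overlap, with WT6 highest and WT0 with ERG-245 lowest.

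**Figure D1:**
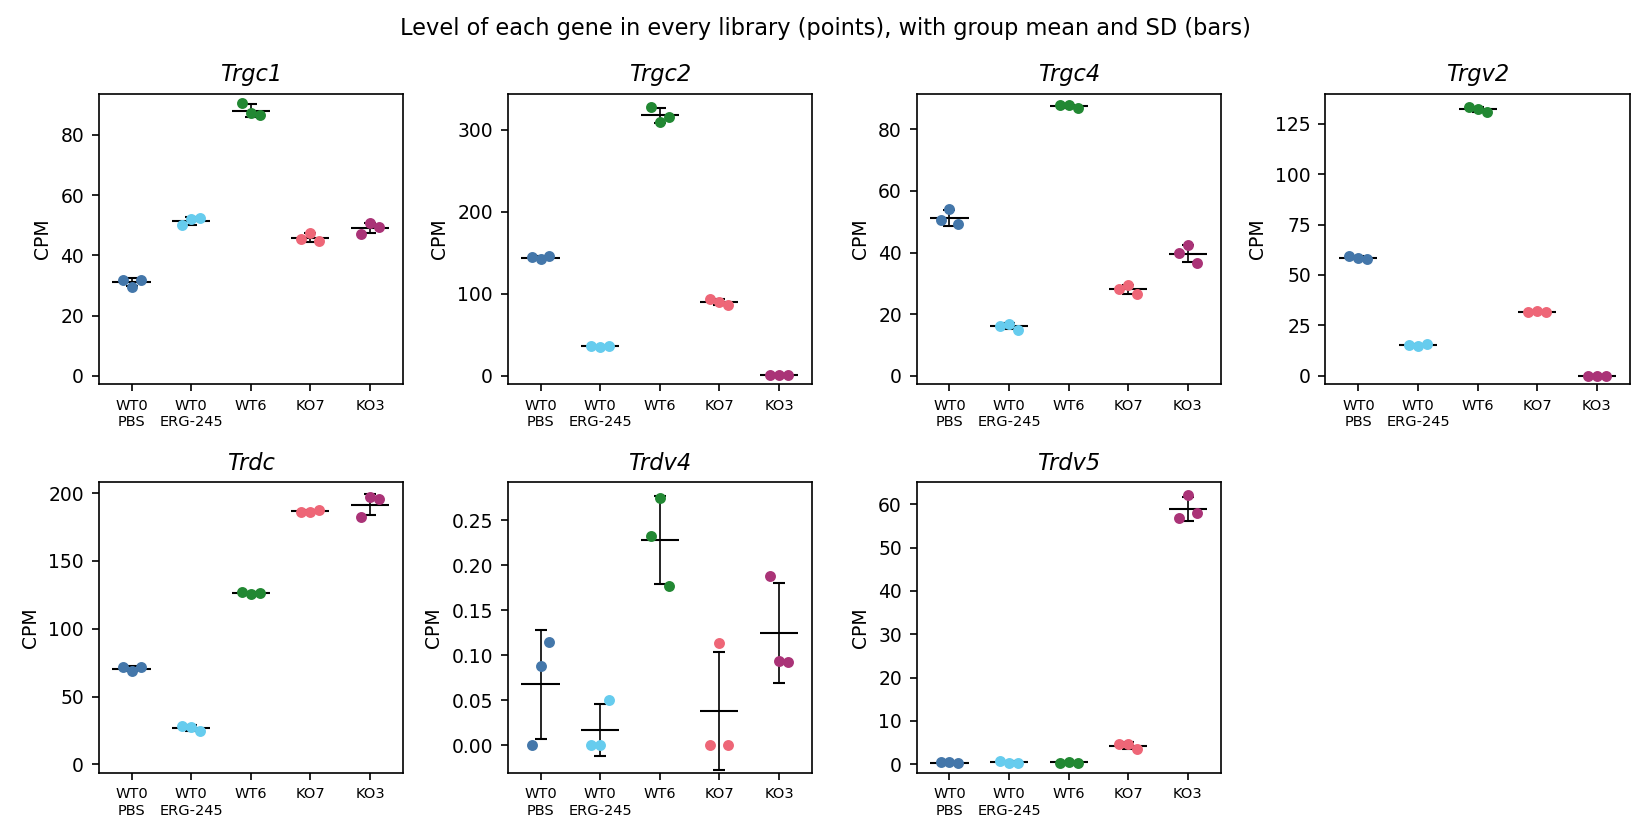
CPM of each of the 7 genes in all 15 libraries (points), with the mean (long line) and SD (error bars) of each group, 3 libraries each, on a linear axis of its own per gene. WT6 is highest for the gamma genes, KO3 is near 0 for Trgc2 and Trgv2, and KO3 stands alone for Trdv5 at 59.0 CPM.

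Trgv2, the V segment of the Trgc2 cassette (chr13:19336573-19337026, minus strand), behaved like its constant gene. It stood at 59.2, 58.6 and 57.7 CPM in WT0 with PBS, 15.0, 14.7 and 15.9 with ERG-245, 133.3, 132.3 and 131.0 in WT6, and 31.8, 32.1 and 31.4 in KO7. In KO3 its 3 libraries held 1, 3 and 0 counts. The groups did not overlap, and the order WT6, WT0 with PBS, KO7, WT0 with ERG-245, KO3 was that of Trgc2. The 4 counts of KO3, against 10330 in WT6, amounted to 0.0470% of the WT6 level after scaling (95% exact interval 0.0128% to 0.121%, for counting error only, since fragments carry no molecular identifiers). Trgc2 in KO3, with 61 counts, was at 0.298% of WT6 (0.228% to 0.383%).

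KO3 held almost no transcript of the Trgc2 cassette, while those of Trgc1 and Trgc4 were present. Its J segment Trgj2 had 2 counts in KO3 against 251 in WT6, which is 0.968% of the WT6 level (0.117% to 3.53%). Trgc2, Trgj2 and Trgv2 lie on the minus strand and all other gamma rows on the plus strand. To one side, Trgv1, Trgj4 and Trgc4 stood at 5.62, 2.38 and 39.6 CPM in KO3, and to the other side Trgv4, Trgj1 and Trgc1 at 25.6, 2.09 and 49.1 CPM. The Trgv3, Trgj3 and Trgc3 rows, which lie between Trgc1 and Trgc2, were near absent in all groups: Trgc3 had at most 0.0449% of gamma constant counts in any group, and Trgv3 had 14 counts in KO3 and 13 or fewer in each other group.

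**Figure D2:**
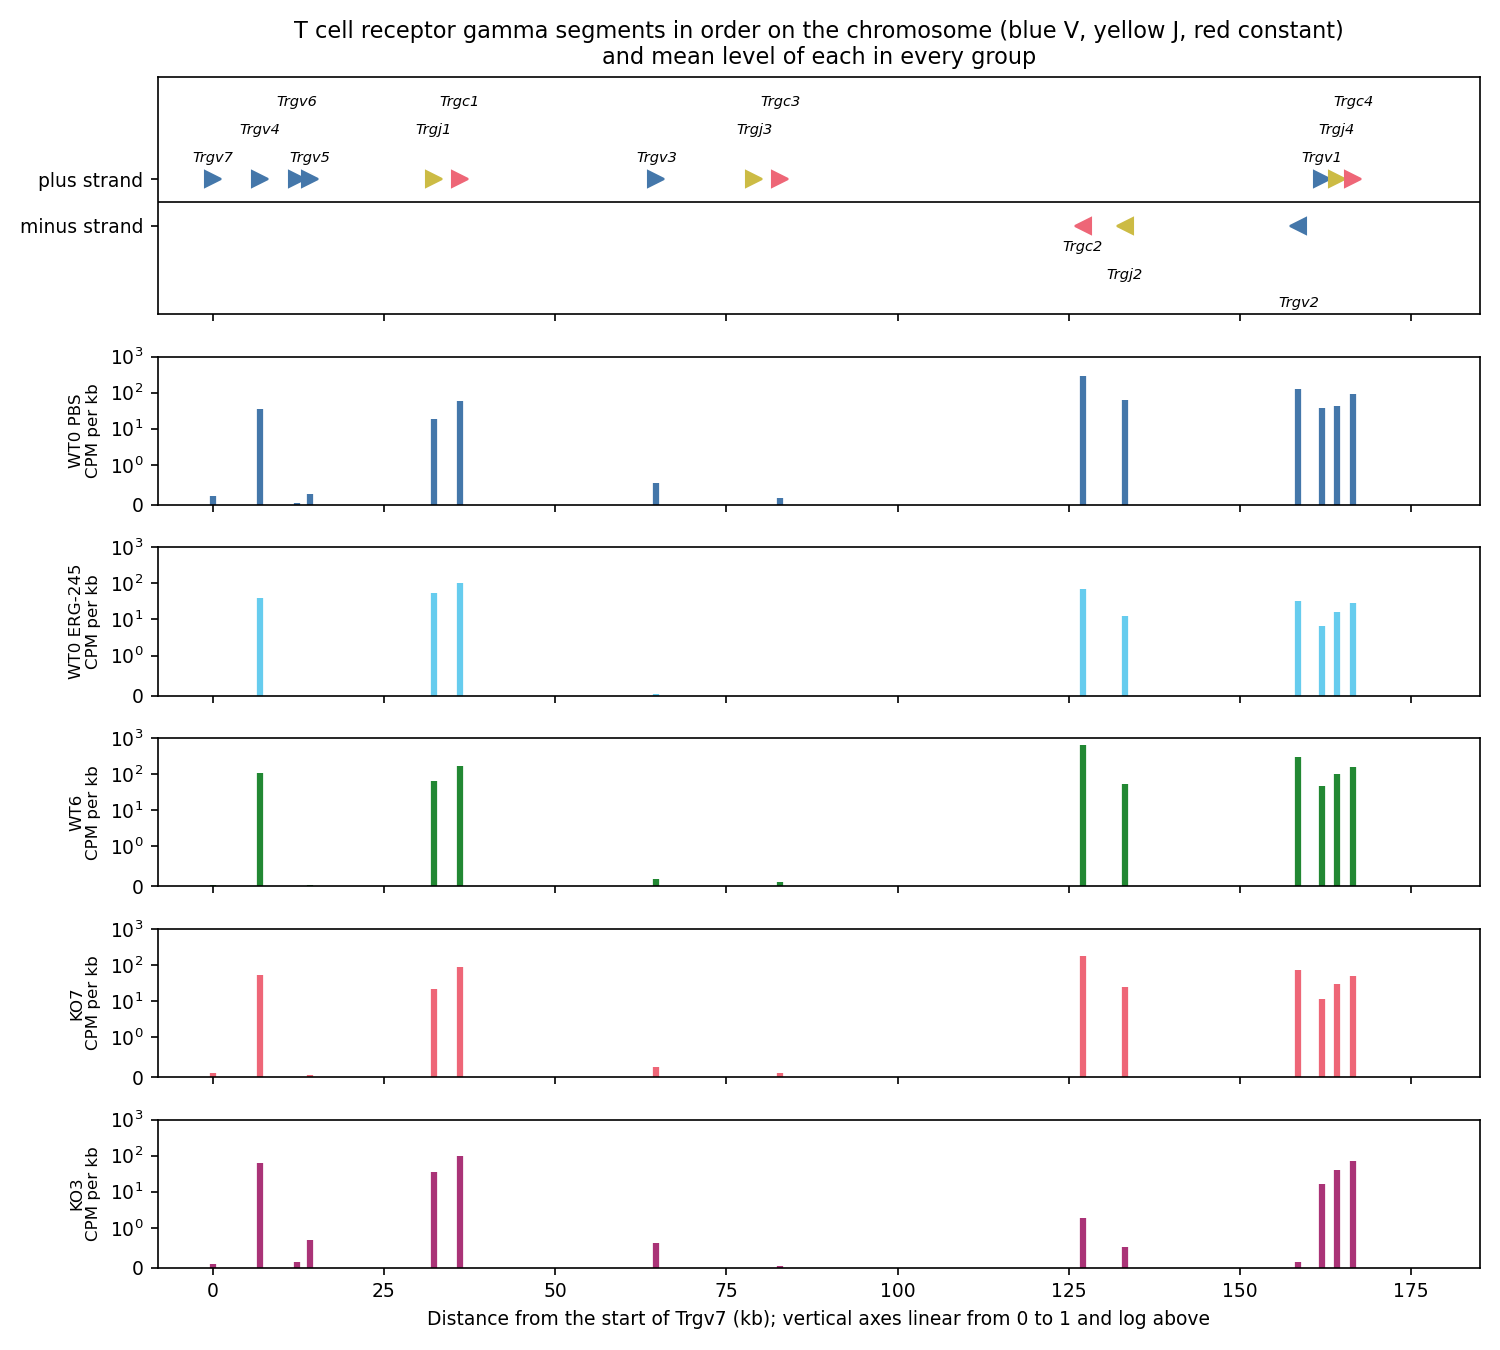
The upper panel places the gamma V, J and constant rows by distance in kb from Trgv7, with arrows for their strand, and the lower panels give the mean CPM per kb of exon in each group, 3 libraries each, on axes that are linear from 0 to 1 and logarithmic above. The bars of Trgc2, Trgj2 and Trgv2 are shortest in KO3, where those of Trgc1 and Trgc4 stay near their height in KO7.

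The makeup of the gamma transcripts differed between groups. Trgc2 made up 63.6 ± 0.634% of gamma constant counts in WT0 with PBS (SD, n = 3 here and below), 64.4 ± 0.429% in WT6 and 54.9 ± 0.906% in KO7, but 34.8 ± 0.695% in WT0 with ERG-245 and 1.06 ± 0.123% in KO3. Trgv2 made up 67.4%, 68.4% and 55.1% of gamma V counts in the 3 groups led by Trgc2, 44.8% with ERG-245 and 0.189% in KO3. Where Trgc2 was low, Trgc1 led: its share was 49.7 ± 0.805% in WT0 with ERG-245 and 54.8 ± 1.62% in KO3, against 13.7% in WT0 with PBS, 17.9% in WT6 and 28.0% in KO7. Its V segment Trgv4 held 48.5% of gamma V counts with ERG-245 and 80.5% in KO3, and 17.2% to 37.9% in the others. Trgc4 held 15.5% to 22.6% in 4 groups and 44.2 ± 1.64% in KO3. Per kb of exon the share of Trgc1 in KO3 was 57.1%.

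The J segments are short and drew 252 to 1041 counts per group in all, so their shares are less precise. Trgj2 held 49.9 ± 2.54% of gamma J counts in WT0 with PBS, 24.7 ± 5.70% in WT6 and 0.709 ± 0.618% in KO3. Trgj1 led with ERG-245 at 66.1 ± 2.74%. Trgj4 had the highest mean share in WT6 (45.8 ± 2.14%), KO7 (39.4 ± 3.83%) and KO3 (53.1 ± 3.92%), whereas Trgc2 led the constant genes in WT6 and KO7 and Trgc1 in KO3. In these 3 of 5 groups the leading J segment by mean share was thus not that of the leading constant gene. In KO7, however, the libraries of Trgj4 (35.4% to 43.1%) and Trgj2 (28.6% to 36.9%) overlapped. In KO3 those of Trgj4 (49.0% to 56.8%) and Trgj1 (42.05% to 51.0%) overlapped as well. Among these 3 groups Trgj4 led without overlap in WT6 alone.

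**Figure D3:**
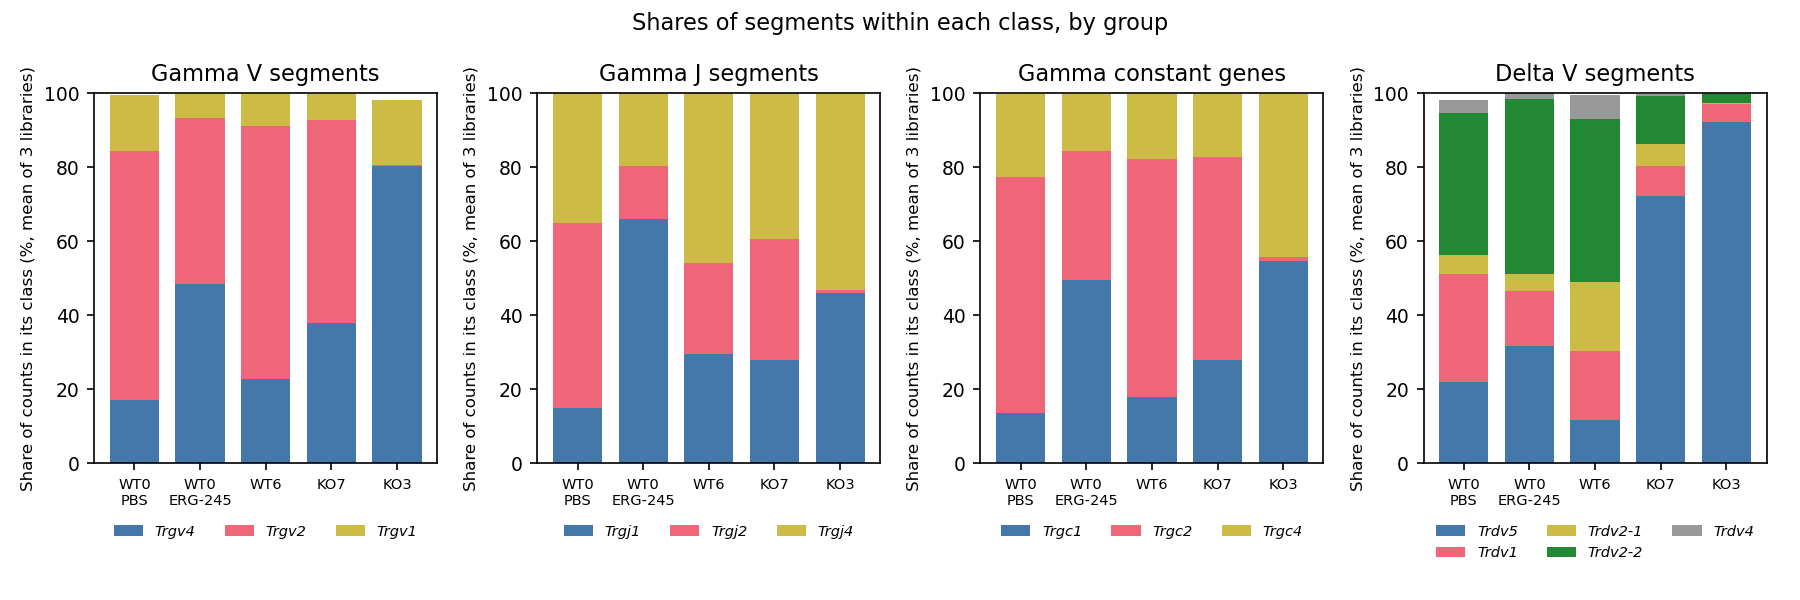
Stacked bars give the mean share, in % of the counts of the class, of the main gamma V, J and constant rows and of the delta V rows, in each group of 3 libraries; what is missing to 100 belongs to rows not drawn. The Trgc2 cassette (red in the gamma panels) is smaller with ERG-245 than with PBS and close to 0 in KO3, and Trdv5 (blue, right panel) leads in KO7 and KO3.

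Across the 15 libraries, each constant gene varied more closely with the V and J rows of its own cassette than with the other constant genes. Pearson's r of log2 CPM was 0.996 between Trgc2 and Trgv2, 0.974 between Trgc2 and Trgj2, 0.968 between Trgc4 and Trgj4, 0.962 between Trgc4 and Trgv1, 0.878 between Trgc1 and Trgv4 and 0.754 between Trgc1 and Trgj1. Between constant genes it was 0.169 for Trgc1 with Trgc2, 0.346 for Trgc1 with Trgc4 and 0.317 for Trgc2 with Trgc4. Trgv4, however, ran closer to Trgj4 of another cassette (0.767) than to Trgj1 of its own (0.535). These values describe 15 libraries that fall into 5 groups and share their scaling. The level of Trgv2 per Trgc2, both per kb, was 0.391 to 0.467 in the 4 groups with both and 0.0699 in KO3.

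Of the gamma and delta rows that were not used in the choice, 14 of 29 had enough counts for a test (edgeR's quasi-likelihood fit over all 15 libraries, Benjamini-Hochberg adjusted over the 15948 genes tested, here and below). Against WT6, 11 of them fell and 1 rose in KO7 (background: 36.7% of all tested genes lower, 32.2% higher), and 7 fell and 2 rose in KO3 (32% lower, 27.7% higher). Their median log2 difference was -1.07 in KO7 and -0.78 in KO3, where that of all genes was -0.03 and -0.02. Both comparisons share the WT6 libraries. A row could pass the count filter through a single group where it was high, which favours a difference from that group. The gamma V and J rows can also lie on the same transcripts as the chosen constant genes. The numbers of rows called are therefore no independent support for the levels of the members. With ERG-245, 6 fell and 1 rose (32.8% lower, 33% higher; median -1.01, all genes 0.00). Between the knock-outs, 8 were higher and 1 lower in KO3 than in KO7 (36.1% and 34.6%; median 0.49, all genes 0.01), a median that turned to -0.17 with scaling to CD3 counts. In WT6 against WT0 with PBS, 8 were higher and 2 lower (36.8% and 35.6%; median 0.67, all genes 0.01).

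By segment, the gamma rows outside the choice moved with their constant gene in some comparisons and not in others. Trgj2 fell in KO3 against WT6, to the 2 counts above (edgeR adjusted p = 1.56e-22), and with ERG-245 against PBS from 3.73 to 0.727 CPM (log2 -2.35, edgeR adjusted p = 3.73e-14). Trgv1 fell with ERG-245 from 13.0 to 2.27 CPM (log2 -2.52, SE 0.13, edgeR adjusted p = 4.86e-29), in KO7 to 3.93 and in KO3 to 5.62 CPM from 16.7 in WT6. Trgj1 rose with ERG-245 from 1.13 to 3.34 CPM (log2 1.52, SE 0.23, edgeR adjusted p = 2.55e-08), beside a higher Trgc1. Trgv4, of the same cassette, was not called there (log2 0.14, edgeR adjusted p = 0.0947) and stood at 14.9 and 16.5 CPM. In WT6 against WT0 with PBS, Trgj2 was not called either (log2 -0.21, edgeR adjusted p = 0.267), while Trgc2 was higher in WT6. Trgv4 fell in both knock-outs from 44.1 CPM in WT6, to 21.9 in KO7 (log2 -1.01) and 25.6 in KO3 (log2 -0.79). Trgj4 fell in KO7 (log2 -1.78), KO3 (log2 -1.36) and with ERG-245 (log2 -1.40), each with an edgeR adjusted p of at most 8.38e-08.

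The delta constant gene ordered the groups otherwise. Trdc (chr14:54142851-54146108, plus strand), which all delta chains use, stood at 71.5, 68.6 and 71.6 CPM in WT0 with PBS, 28.4, 27.2 and 24.5 with ERG-245, 127.3, 125.3 and 126.0 in WT6, 186.2, 185.9 and 187.4 in KO7, and 182.6, 196.9 and 195.4 in KO3. KO7 and KO3 overlapped and both stood above WT6, the reverse of the gamma genes. Per kb of exon, Trdc reached 2.94 ± 0.206 times the alpha constant gene Trac in KO3 and 2.13 ± 0.129 times in KO7, against 0.773 ± 0.0158 in WT6, 0.953 ± 0.0225 in WT0 with PBS and 0.203 ± 0.0148 with ERG-245. The ratio thus exceeded 1 in the knock-out leukemias alone among these 5 groups. Relative to the summed gamma constants it was 0.146, 0.121 and 0.120 in WT0 with PBS, WT0 with ERG-245 and WT6, 0.533 ± 0.0195 in KO7 and 1.045 ± 0.0441 in KO3.

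Trdv5 lies 3′ of Trdc in the opposite direction (chr14:54148662-54149201, minus strand) and is known to join by inversion. It stood at 0.444, 0.441 and 0.346 CPM in WT0 with PBS, 0.741, 0.365 and 0.304 with ERG-245, 0.299, 0.550 and 0.399 in WT6, 4.77, 4.71 and 3.46 in KO7, and 56.8, 62.0 and 58.0 in KO3. The 3 wild-type groups overlapped near 0, KO7 was above them, and KO3 was 13.7-fold above KO7 on mean CPM. The KO3 libraries held 3790 counts in all against 32 in WT6. Trdv5 made up 92.2 ± 0.738% of Trdv counts in KO3 and 72.3 ± 6.22% in KO7, against 11.6% to 31.7% in the wild-type groups, whose 85 to 278 Trdv counts per group leave wide spreads. Per kb, Trdv5 was close to Trdc in KO3 (0.985 ± 0.0311) and far below it in KO7 (0.0742 ± 0.0130) and WT6 (0.0106 ± 0.00330). All Trdv rows together had 328 counts in KO7 and 4111 in KO3, at like levels of Trdc.

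Trdv4 (chr14:54075004-54075515, plus strand) was close to absent. It had 18 counts over the libraries of WT6, 8 in KO3, 2 in KO7, 4 in WT0 with PBS and 1 with ERG-245, and 0 to 7 counts in any library. It did not pass the filter on low counts, and no fold is given. Its 6.40 ± 1.29% of Trdv counts in WT6 rests on those 18 counts.

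**Figure D4:**
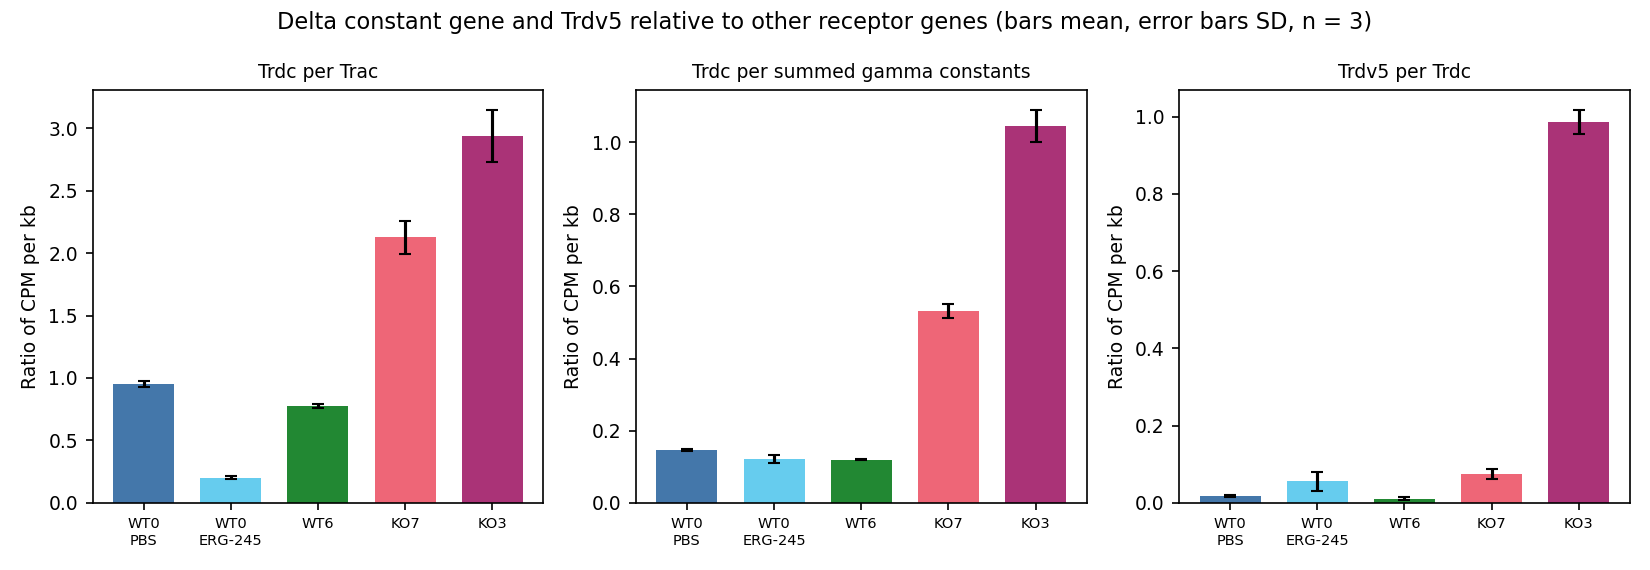
Bars give the mean ratio of CPM per kb of exon (error bars SD, 3 libraries per group) of Trdc to Trac, Trdc to the summed gamma constants, and Trdv5 to Trdc. KO7 and KO3 are highest for both Trdc ratios, at 2.13 and 2.94 for Trac, and KO3 alone approaches 1 for Trdv5.

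The other delta rows were low. Trdv1 rose in KO3 from 0.672 CPM in WT6 to 3.17 CPM (log2 2.26, SE 0.26, edgeR adjusted p = 8.55e-12), and it also exceeded KO7 (log2 2.79, SE 0.31, edgeR adjusted p = 8.69e-13). Trdv2-2 stood between 0.691 and 1.57 CPM and fell in KO7 against WT6 (log2 -1.01, edgeR adjusted p = 0.00111). Trdj1 fell in both knock-outs (log2 -1.23 in KO7, edgeR adjusted p = 0.0022, and -0.78 in KO3, adjusted p = 0.0353). It held 83.1 ± 9.03% of delta J counts in WT6, from 106 counts, and 31.1% to 48.6% elsewhere. Among the V segments shared by alpha and delta chains, Trav15-1-dv6-1 stood at 4.41 CPM in WT0 with PBS and at 0.185 to 0.451 CPM in all other groups, and it fell with ERG-245 (log2 -3.34, SE 0.29, edgeR adjusted p = 2.68e-17). Trav21-dv12 stood at 0.590 to 1.53 CPM and fell in KO7 against WT6 (log2 -0.97, edgeR adjusted p = 0.00622). Of the 29 rows, 8 had at most 3 counts in every library.

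Set side by side, the members gave these differences as log2 ratios of mean CPM with the SE from the spread of libraries. With ERG-245 against PBS in WT0, Trgc1 was higher (0.73, SE 0.04), while Trgc2 (-1.998, SE 0.02), Trgv2 (-1.94, SE 0.04), Trgc4 (-1.68, SE 0.06) and Trdc (-1.40, SE 0.07) were lower. In KO7 against WT6 the gamma members were lower, by -0.94 for Trgc1, -1.82 for Trgc2, -1.64 for Trgc4 and -2.06 for Trgv2, and Trdc (0.56, SE 0.01) and Trdv5 (3.38, SE 0.29) were higher. In KO3 against WT6 they were lower by -0.84 for Trgc1, -1.14 for Trgc4 and -8.39 for Trgc2, and Trdc (0.60, SE 0.03) and Trdv5 (7.15, SE 0.26) were higher. The shared WT6 libraries enter both knock-out comparisons. WT6 was itself above WT0 with PBS for Trgc1 (1.504), Trgc2 (1.14), Trgv2 (1.18), Trdc (0.84) and Trgc4 (0.77), so the wild-type leukemias also differed from each other.

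Libraries of a pair of groups did not overlap in 58 of 70 pairs over the 7 members, where 69.7% of all gene and group pairs among tested genes did not overlap, so separation of groups by itself was the common case. Trgc2, Trgc4 and Trgv2 separated all 10 pairs and Trdv4 only 4. Scaled per 1000 counts of the CD3 genes Cd3d, Cd3e, Cd3g and Cd247, Trgc2 stood at 80.0, 34.1, 236.2, 76.5 and 0.510 in WT0 with PBS, WT0 with ERG-245, WT6, KO7 and KO3, Trdc at 39.2, 25.2, 93.9, 158.5 and 103.1, and Trdv5 at 0.228, 0.443, 0.310, 3.67 and 31.7. On that scale the order of KO3 and KO7 turned for Trgc1 (26.4 against 39.0), Trgc4 (21.3 against 23.9) and Trdc. Summed CD3 counts were 1859 CPM in KO3, 1802 in WT0 with PBS, 1344 in WT6, 1177 in KO7 and 1060 in WT0 with ERG-245.

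With the leukemia as the unit, that is both knock-outs against WT6 and vehicle-treated WT0 on counts summed per leukemia, edgeR called 0 of 17226 genes (percent called 0, 226 genes at an unadjusted p under 0.05, and 43 called by DESeq2). None of the 17 tested gamma and delta rows outside the choice was called by edgeR. With 2 residual degrees of freedom this fit could hardly call a gene, and edgeR did not call Bcat1 either. It therefore does not decide whether a difference follows genotype. The differences between knock-out and wild type above were each measured between single leukemias.

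The genes whose levels ran most alike with the members were named by Pearson's r of log2 CPM over the 15 libraries, among the 10985 genes whose mean reached 5 CPM. For Trgc1 they were Igkv12-44 (r = 0.992), Snn (0.991) and Igkc (0.990), and 199 genes had r above 0.9. Igkc, the kappa constant gene of B cells, stood at 434.1, 1683, 5788, 1484 and 1563 CPM in the order WT0 with PBS, WT0 with ERG-245, WT6, KO7, KO3. For Trgc2 and Trgv2 the leading genes were Gm46430 (0.983 and 0.991) and Rrbp1 (0.971 for each), followed by Agtpbp1 for Trgc2 and Gm26740 for Trgv2 (0.957 each). Gm46430 stood at 4.49 CPM in KO3 and at 23.3 to 40.2 elsewhere, and 16 genes had r above 0.9 with Trgc2. For Trgc4 they were Itpkb, an inositol trisphosphate kinase of lymphocytes (0.991), Tasor (0.983) and Kmt5b (0.980). For Trdc they were Hcls1 (0.991), Ccdc30 (0.984) and Tspyl1 (0.979), and for Trdv5 Slfn2 (0.978), Gm4779 (0.976) and Trbv12-1 (0.971). Gm4779 stood at 142.8 CPM in KO3, 11.1 in KO7 and 0.0131 to 0.0783 in the wild-type groups, and the beta segment Trbv12-1 at 26.9 and 2.85 CPM in KO3 and KO7.

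Gamma and delta chains reach the surface with CD3, so the CD3 chains and proximal signalling genes were read next. In KO7, 9 of 10 fell and 1 rose against WT6, whereas in KO3 8 rose and 2 fell (background 68.9% and 59.7% called). With scaling to CD3 counts both medians changed sign, to 0.03 and -0.36. That scale is made from Cd3d, Cd3e, Cd3g and Cd247 of this list, so the change is partly set by its construction. With ERG-245, 8 of 10 fell and 1 rose (background 65.8%). Cd3e stood at 534.2 CPM in WT0 with PBS and 210.7 with ERG-245 (log2 -1.34, SE 0.02, edgeR adjusted p = 4.33e-58), and at 246.8 in WT6, 228.2 in KO7 and 396.2 in KO3. Cd247, the zeta chain, fell in both knock-outs (log2 -0.22 in KO7 and -0.41 in KO3). The alpha/beta chains moved apart from each other. Trac fell from 134.2 CPM in WT6 to 72.3 in KO7 and 53.7 in KO3 (log2 -0.89 and -1.32, edgeR adjusted p = 5.47e-37 and 3.41e-47), and rose with ERG-245 from 60.9 to 108.5. Trbc1 rose in KO3 (log2 2.42) and with ERG-245 (log2 2.36) and fell in KO7 (log2 -1.13), while Trbc2 fell with ERG-245 and rose in both knock-outs. These beta constant genes are near-identical copies as well, with the same uncertainty. Ptcra, the pre-T cell receptor alpha chain of immature thymocytes, stood at 386.6 CPM in KO7, 260.7 in WT6 and 238.4 in KO3. Of the 4 alpha/beta genes 2 rose and 2 fell in each of these 3 comparisons.

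Genes of V(D)J recombination were read as the machinery that joins these segments. Rag1, which with Rag2 cuts the segments, stood at 376.2 to 944.6 CPM over the groups. Dntt, which adds bases at the joints, was 691.3 CPM in KO3, 378.4 in KO7 and 255.8 in WT6, and rose in both knock-outs (log2 1.43 and 0.57, edgeR adjusted p = 1.99e-62 and 9.24e-35). Rag2 rose in KO3 (log2 1.84) and KO7 (log2 0.54) and fell with ERG-245 (log2 -1.64). Of the 14 genes of the list, 6 rose and 2 fell in KO3, 5 rose and 7 fell in KO7, and 3 rose and 7 fell with ERG-245. The share called was 57.1% in KO3, 85.7% in KO7 and 71.4% with ERG-245, against 59.7%, 68.9% and 65.8% of all genes, so that in KO3 and with ERG-245 it was near the background.

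Genes of signals and factors known to act on the gamma locus were read next. Of 19 measured, 12 fell and 3 rose in KO7 (median log2 -0.23) and 6 fell and 9 rose in KO3 (median 0.03), and 13 fell and 3 rose with ERG-245 (median -0.23). The shares over all genes were 36.7% lower and 32.2% higher in KO7, 32% and 27.7% in KO3, and 32.8% and 33% with ERG-245. Il7r, whose signal through STAT5 opens the gamma locus, fell with ERG-245 from 80.0 to 23.1 CPM (log2 -1.79, SE 0.05, edgeR adjusted p = 2.66e-46). It stood at 34.5 CPM in WT6, 26.9 in KO7 and 53.7 in KO3. It was higher in KO3 than in WT6 (log2 0.64, or 0.167 with scaling to CD3 counts). Its part in the gamma levels was not tested. Gata3 fell with ERG-245 (log2 -1.27) and in KO7 (log2 -0.71) and rose in KO3 (log2 0.28, which turned with scaling to CD3 counts). Lef1 moved in the same directions (log2 -0.61, -0.45 and 0.68), and its value in KO3 stayed positive with scaling to CD3 counts (0.208). Notch1 stood at 822.4 to 1315 CPM.

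Genes of the gamma/delta T cell programme were mostly lower in both knock-outs than in WT6. Their summed level was 1305 CPM in WT6, 1009 in KO7, 1007 in KO3 and 903.2 in WT0 with PBS. By this sum both knock-outs lay above WT0 with PBS, and they were not tested against WT0 alone. Of 22 tested, 18 fell and 4 rose in KO7 (median log2 -0.89), 17 fell and 2 rose in KO3 (median -0.65), and 11 fell and 5 rose with ERG-245 (median -0.48). Over all genes, 36.7% fell and 32.2% rose in KO7, 32% and 27.7% in KO3, and 32.8% and 33% with ERG-245. In WT6 against WT0 with PBS 19 were higher and 3 lower (background 72.5% called). Nr4a1, induced by receptor signals, fell from 80.0 CPM in WT6 to 45.2 in KO7 and 30.3 in KO3 (log2 -0.82 and -1.40, edgeR adjusted p = 1.86e-28 and 1.58e-41). Cd163l1, a scavenger receptor of gamma/delta cells, fell to 17.6 and 39.6 CPM from 67.5 in WT6 (log2 -1.93 and -0.77), and Il2rb fell likewise (log2 -1.58 and -0.72). Il17a itself had at most 3 counts in every group.

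**Figure D5:**
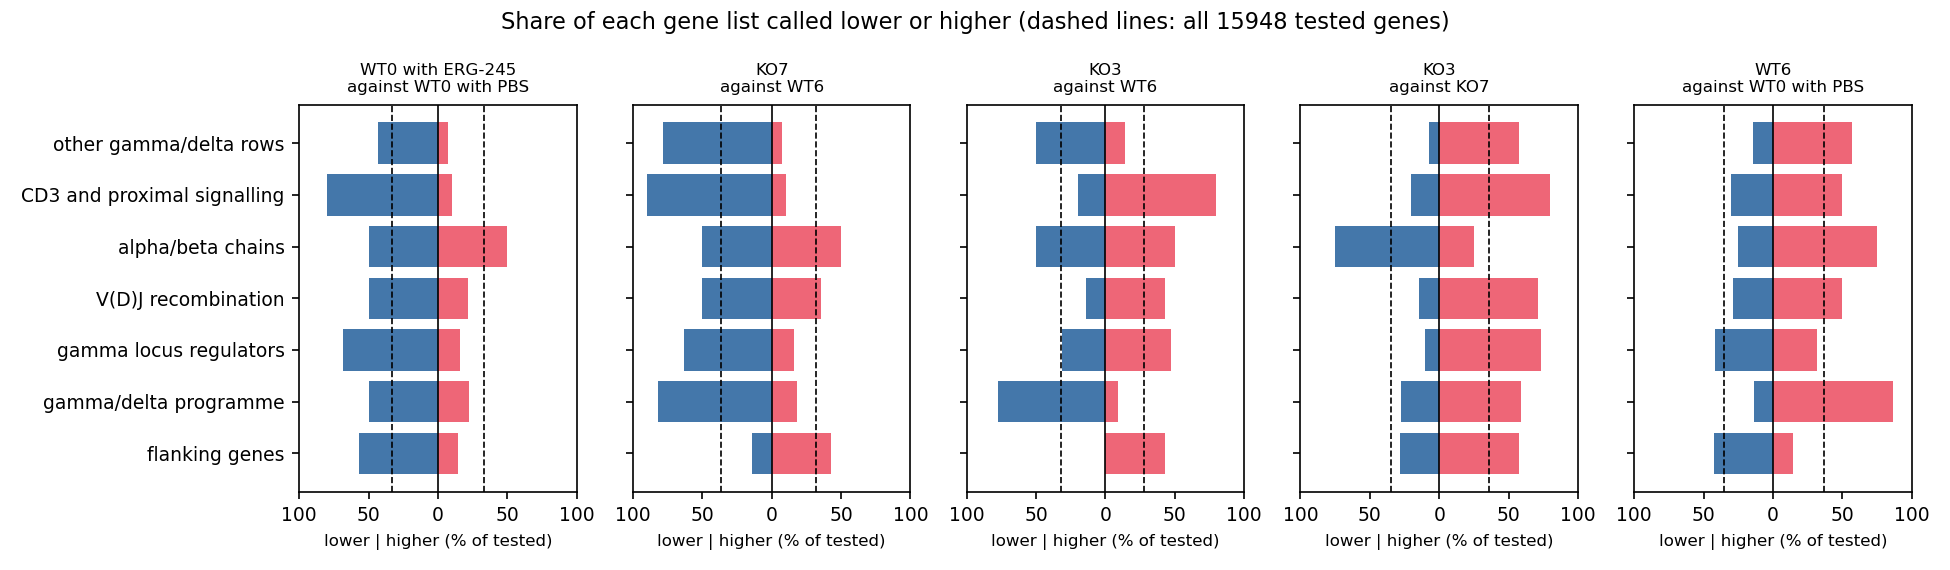
For 7 gene lists and 5 comparisons, bars show the share of tested members called higher (red, right) and lower (blue, left) in % at an edgeR adjusted p under 0.05, with dashed lines at the shares over all 15948 genes. The gamma/delta programme reaches left of the line in both knock-outs against WT6, with 18 and 17 of 22 lower.

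The protein-coding neighbours of the loci served as a check of position. Of 7 flanking genes 3 rose and 1 fell in KO7, 3 rose and 0 fell in KO3, and 1 rose and 4 fell with ERG-245. The share called was 57.1%, 42.9% and 71.4%, against 68.9%, 59.7% and 65.8% of all genes. Dad1, which lies next to the alpha locus, stood at 61.2 to 82.0 CPM and was not called in KO3 against WT6 (log2 -0.03, edgeR adjusted p = 0.509). It was called higher in KO7 against WT6 (log2 0.11, edgeR adjusted p = 0.00972) and with ERG-245 (log2 0.25, edgeR adjusted p = 2.15e-07). In WT6 it was higher than in WT0 with PBS (log2 0.32, edgeR adjusted p = 5.76e-11), and in KO3 lower than in KO7 (log2 -0.14, edgeR adjusted p = 0.0013). Sall2 rose in KO3 (log2 1.04) and Abhd4 in KO7 (log2 1.03). Mettl3 stood at 36.1 to 51.6 CPM.

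Scaling to CD3 counts in place of TMM adds 1 constant to every log2 difference of a comparison, 0.77 with ERG-245, 0.19 in KO7 and -0.47 in KO3 against WT6, -0.66 in KO3 against KO7 and 0.42 in WT6 against WT0. Under it 12891 genes were higher and 687 lower with ERG-245, against 5263 and 5225 with TMM, and 901 were higher and 12214 lower in KO3 against WT6, against 4421 and 5102. In KO7 against WT6 the numbers were 7683 and 3440, against 5143 and 5849. The CD3 scale was chosen for these genes after seeing the data. All differences in list genes above are relative to the TMM scale, on which the median of all genes was within 0.03 of 0. On the CD3 scale the medians of the CD3, recombination and flanking lists changed sign in all 3 comparisons. The CD3 list holds the genes that make the scale, so its change is partly set by construction. The median of the alpha/beta chains changed sign in both knock-outs, and that of the regulators with ERG-245 (0.53) and in KO3 (-0.44). The gamma/delta programme kept lower medians in both knock-outs and changed sign with ERG-245 (0.28), and the other gamma and delta rows kept the sign of their median in these 3 comparisons.

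Markers of other cells of the spleen differed between the groups, and their part in the results was not tested. The counts below stand against 36.7% of all genes lower and 32.2% higher in KO7, 32% and 27.7% in KO3, and 32.8% and 33% with ERG-245. B cell markers summed to 1225 to 1245 CPM in WT0 with PBS, 3048 to 3132 with ERG-245, 7025 to 7375 in WT6, 3753 to 3817 in KO7 and 2372 to 2419 in KO3, with all 12 above 3 counts in each group. Igkc alone gave 5788 CPM of this in WT6. Of these 12, 9 fell and 2 rose in KO7, 9 fell and 1 rose in KO3, and 10 fell and 2 rose with ERG-245, where the sum was higher while the median log2 difference was -1.86. Erythroid markers (11 measured) summed to 38620 to 40820 CPM in WT0 with PBS, 46710 to 50760 with ERG-245, 11190 to 12880 in WT6, 55530 to 59000 in KO7 and 10800 to 11200 in KO3, and 11 rose in KO7, 5 rose and 4 fell in KO3 (median 0.02, or -0.44 with scaling to CD3 counts), and 10 rose with ERG-245. Alas2 stood at 2105 CPM in KO7. Macrophage markers summed to 3944 to 3965 CPM in KO7 and to 1298 to 2149 elsewhere, with 11 of 12 higher and 1 lower in KO7, 1 higher and 8 lower in KO3, and 7 higher and 2 lower with ERG-245.

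Lymphocytes that can carry gamma or delta transcripts were looked for as well. Of 14 NK and cytotoxic markers, Klra4 was at or under 3 counts in every group, Klra8 in 4 groups, Klre1 in WT0 with either treatment, and Ncr1 in WT0 with PBS and KO3. Their sum was 482.9 to 511.0 CPM in WT6, 504.2 to 514.8 in KO3, 421.2 to 443.7 in WT0 with PBS, 381.8 to 390.3 with ERG-245 and 323.7 to 328.3 in KO7, mostly Gzma (415.0 CPM in WT6). Of 10 tested, 5 fell and 3 rose in KO7, 6 fell and 3 rose in KO3, and 2 fell and 5 rose with ERG-245, where 68.9%, 59.7% and 65.8% of all genes were called in either direction, here and for the next lists. Innate lymphoid markers summed to 220.3 to 367.3 CPM over all libraries, and Il5 was at or under 3 counts in 3 groups; of 8 tested, 3 rose and 3 fell in KO7, 2 rose and 3 fell in KO3, and 5 rose and 1 fell with ERG-245. Mature alpha/beta T markers summed to 860.8 to 2140 CPM over all libraries, and 7 of 10 fell and 2 rose in KO7, 6 fell and 2 rose in KO3, and 3 fell and 6 rose with ERG-245. Cd8a stood at 869.5 CPM in WT6, 811.3 in KO7 and 326.3 in KO3, and Cd4 at 443.9 CPM in KO7, 210.9 in WT6 and 110.9 in KO3. The part of these cells in the gamma and delta levels was not tested.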

How the data were processed

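RNA of spleen leukemic T cells was measured in 15 libraries, 3 per group, made with the TruSeq stranded mRNA kit, per the labels' protocols. The values deposited by the authors are raw fragment counts for each gene. They were made with featureCounts 2.0.1, per the file headers, on properly paired fragments over RefSeq exons of GRCm38.p6 (strand setting 2, minimum overlap 25 bases), and no option for multi-mapping or overlapping reads stands in that command. Per the submitters' processing notes, the tools were DESeq2, STAR, Subread and Trim Galore with build mm10, without settings given. The deposited table also gives exon length in bases (its other unit), used here for values per kb. The alignment names of the 3 vehicle libraries of WT0 in the file header contain DMSO, whereas the labels say PBS.

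Counts were read for 39827 genes, leaving out 9 broken lines, with 0 value columns of other samples; 39743 IDs matched a symbol. In R 4.3.3, edgeR 4.0.16 was used with filterByExpr (15948 genes), TMM, quasi-likelihood tests in a model of the 15 libraries together (residual degrees of freedom: 10) and Benjamini-Hochberg adjusted p under 0.05. A second model took each leukemia's summed counts as 1 sample (17226 genes, 2 residual degrees of freedom). Log2 CPM for correlations used a prior count of 2. Shares and ratios were computed per library. The fit was tested on simulated data. Of the 7 members 6 passed the filter. Total counts of 17441292 to 28902573 set the precision, and 3 counts in a group were taken as the floor. DESeq2 1.42.0, no filter, total-count and CD3 scaling, 2-group fits, a replicate block and leaving out each library were the alternatives.

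The members and the gene lists (CD3 and proximal signalling, alpha/beta chains, V(D)J recombination, gamma locus regulators, gamma/delta programme, flanking genes, and markers of NK, innate lymphoid, mature alpha/beta T, B, erythroid and macrophage cells) were chosen with earlier results of these data known. Named are the members, other gamma and delta rows with at least 1 CPM in a group, the 3 genes most alike per member, at most 4 genes of each list (those of smallest p), and Bcat1. Sequences were read from the GENCODE M21 transcripts. Some genes and sequences named by these rules are not reported here.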

Additional observations from a re-analysis of the deposited data

Results flagged for a closer look

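For 14 of the named genes of the lists, KO7 and KO3 moved in opposite directions against the shared WT6 libraries, each called, and the difference between KO3 and KO7 was itself called (edgeR adjusted p of at most 1.28e-29). The following values are log2 KO3 minus KO7, with the values of KO7 and KO3 against WT6 in brackets. Of the receptor and CD3 genes, it was 3.55 for Trbc1 (-1.13 and 2.42), 0.90 for Cd3d (-0.24 and 0.65), 0.80 for Cd3e (-0.11 and 0.68), 0.73 for Cd3g (-0.17 and 0.56) and -0.70 for Ptcra (0.57 and -0.13). Among factors and receptors of T cell development, it was 1.12 for Lef1 (-0.45 and 0.68), 1.00 for Il7r (-0.36 and 0.64) and 0.99 for Gata3 (-0.71 and 0.28). Among T cell markers, it was -2.0 for Cd4 (1.07 and -0.93) and -1.45 for Cd8b1 (0.31 and -1.14). Among genes of other cells, it was 3.42 for Arg1 (-2.96 and 0.46), 1.38 for Gzma (-1.32 and 0.06), -1.38 for Fcer1g (1.17 and -0.20) and -1.57 for Ighm (0.81 and -0.76). Under scaling to CD3 counts all 14 kept the sign of KO3 minus KO7, and 9 still moved in opposite directions against WT6. Arg1, Cd3e, Cd3g, Gata3 and Gzma did not. Cd3d, Cd3e and Cd3g are themselves part of the CD3 scale, so for them this scaling is no check.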

How the results depend on the processing

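The number of called genes in each of the 5 group comparisons stayed within 1.5 times of its value under every alternative run. Leaving out 1 library at a time gave 9843 to 9988 called genes with ERG-245 (main 10488), 10412 to 10789 in KO7 (10992) and 8892 to 9232 in KO3 (9523) against WT6, 10780 to 10928 between the knock-outs (11270) and 11118 to 11283 between the wild types (11558). The 14 other gamma and delta rows gave 5 to 9, 8 to 10, 7 to 9, 7 to 8 and 9 called in the same order, and 3 instead of 9 between the knock-outs under CD3 scaling, which was added after seeing the data. Over leukemias, called genes went from 0 to 43 with DESeq2 and 8 without the filter, and leaving out 1 leukemia gave 0 to 7, with 3 without WT0 and 7 without WT6; of the gamma and delta rows 1 was called by DESeq2. The cause was not tested. Pairs of groups without overlap over the members were 58 to 61 with a library left out and 61 of 70 with CD3 scaling.

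CD3 scaling turned KO3 against KO7 to -0.56 for Trgc1 (main 0.10), -0.16 for Trgc4 (0.50) and -0.62 for Trdc (0.04), by its construction. For Trdv5 near 0, the ERG-245 ratio went from 0.20 to -0.29 without ERG-245 library 1 (range to 0.43), and the WT6 to WT0 ratio from 0.02 to -0.09 without WT0 PBS library 3 and to -0.23 without WT6 library 2 (range to 0.21). Replicate numbers did not pair the samples: over 30 same-numbered pairs of libraries r was -0.046 to 0.032, and 0 of 15 libraries correlated best with their own number. With the replicate number as a block, 10397 (ERG-245), 10920 (KO7), 9443 (KO3), 11218 (KO3 against KO7) and 11502 (WT6 against WT0) genes were called, and 7, 11, 9, 8 and 9 of the other gamma and delta rows. Low counts limit Trdv4, the J rows and Trgv2 in KO3.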
